A study of Homo sapiens with 65 samples.

Results

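Cardioids carrying a knockout of HAS2 were followed from day 2.5 to day 4.5 of left-ventricular differentiation. A cardioid is a small three-dimensional heart-like aggregate grown from pluripotent stem cells. The libraries were chosen by their titles, which gave 6 knockout libraries of day 4.5 and 6 of day 2.5, 12 of the 65 libraries in the series. All came from the human induced pluripotent stem cell line WTC-11, and the labels give the genotype as HAS2-KO, the tissue as cardioid and the cell type as cardiac progenitor, without describing the edited allele. Both days shared a mesoderm induction with FGF2, LY294002, Activin A, BMP4 and CHIR99021 until day 1.5, reseeding into low-attachment plates, and a first patterning medium with BMP4, FGF2, insulin, C59 and retinoic acid. The day 2.5 cardioids still had the ROCK inhibitor of the reseeding in their medium, while those of day 4.5 had been through its removal and the change to a second patterning medium. The knockout was represented by 4 clones, named cl4, cl14, cl46 and cl51. Clone cl4 had 3 libraries a day (R1, R2 and R3) and the other clones 1 each, so the 6 libraries of a day are not 6 independent clones. The wild-type libraries set beside them, 6 a day and grown in the same media, came from WTC-11 lines labelled WT and WT_TU (2 libraries each), cl43_WT_UT and TNT2. Each library pooled 8 cardioids, and the labels state at least 3 biological replicates a condition without saying which libraries were separate cultures, so the p-values measure the spread between these libraries, part of which may be technical.

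HAS2 is the membrane enzyme that makes most of the hyaluronan of the early embryo, a long sugar polymer that swells the matrix between cells. Cardiac mesoderm forms as cells leave the primitive streak under MESP1 and EOMES. It then shuts off the streak and pluripotency programmes, switches on transcription factors such as NKX2-5, TBX5, GATA4 and MEF2C, and builds contractile sarcomeres, which makes the interval studied here the passage from mesoderm to heart muscle.

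Libraries were made from the 3′ ends of polyadenylated RNA, and values are given as CPM, the counts of a gene scaled to a common library total. Unless stated otherwise, a value is the median of the 6 libraries of a day, with the lowest and the highest library in parentheses. The 12 knockout libraries held 831062 to 1969113 counts (median 1681732), within the 831062 to 3574843 of the series. The shallowest, cl4 R1 of day 2.5, also held 10 of the 12 values that stood apart within their group of 6. At day 4.5 the libraries of cl46 and cl51 had the lowest sarcomere levels of the 6. Counts that moved by over 1.5 times without these clones, or without cl4 R1 at both days, are therefore given with those values. Library numbers in the labels fell into 3 blocks, with cl4 R1 in the first, cl4 R2 in the second and the other knockout libraries in the third. Of the wild type, WT R1 and WT_TU R1 were in the first, WT R2 and WT_TU R2 in the second and cl43_WT_UT and TNT2 in the third. Genotype and block were thus not balanced. A step difference in the third block alone has only cl43_WT_UT and TNT2 for the wild type. Pooled tissue RNA cannot tell fewer cells of a type from less RNA per cell, and this holds for every level below.

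HAS2 itself was still transcribed in the knockout libraries, at 515 CPM (442–913) at day 2.5 and 319 CPM (286–486) at day 4.5. A 3′ tag may lie outside the edited part of the gene, which the labels do not describe, and so does not check the knockout. The highest day 2.5 value was that of cl4 R1. The decrease was small and the days overlapped (log2 fold change −0.70, SE 0.27, adjusted p = 0.0456, by edgeR's quasi-likelihood test with Benjamini-Hochberg adjustment over all genes, as for every adjusted p below). The call was close to the threshold. Leaving out 1 library at a time ended it in 9 of 12 cases, with an adjusted p of up to 0.137. Without cl46 and cl51 the adjusted p was 0.236 and the log2 fold change −0.58. With a block for each clone and repeat the decrease passed (adjusted p = 0.00142).

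Knockout cardioids changed a large share of their measured genes over the 2 days. Of 13797 genes tested, 4205 passed the threshold of 0.05 (30.5%), of which 2146 were higher at day 4.5 (15.6%) and 2059 lower (14.9%). Changes of at least 2-fold made up 2808 of them (20.4%), with 1478 higher and 1330 lower. Changes of at least 8-fold were found in 459 genes that rose and 234 that fell. The 6 libraries of one day lay entirely above the 6 of the other in 1499 genes that were higher (10.9%) and 1523 that were lower (11.0%). Without cl46 and cl51, 3274 genes passed, of which 3123 were among the 4205, and without cl4 R1 3651, of which 3506 were.

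Of the markers of the labelled tissue, those of cardiomyocytes moved as a block and those of cardiac mesoderm did not. Among all genes tested 15.6% rose, 14.9% fell and 10.9% were higher without overlap of the days. All 8 cardiomyocyte markers (MYH6, TNNT2, TNNI1, ACTN2, RYR2, ACTC1, NKX2-5 and MYL7) rose, and none overlapped between the days. Their summed level was 97.3 CPM (70.8–153) at day 2.5 and 12361 CPM (5358–16815) at day 4.5. Of 8 markers of cardiac mesoderm, MESP2, EOMES, MESP1, APLNR and HAND1 fell, GATA4 and PDGFRA rose (1 of them without cl46 and cl51 or without cl4 R1), and KDR did not pass. Their summed level went from 1483 CPM (1359–1825) to 996 CPM (901–1137). The sum for mesoderm thus dropped far less than the sum for muscle rose, though sums weigh the most abundant members most. The median log2 fold change was −1.79 for the mesoderm markers and 6.51 for the cardiomyocyte markers.

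**Figure D1:**
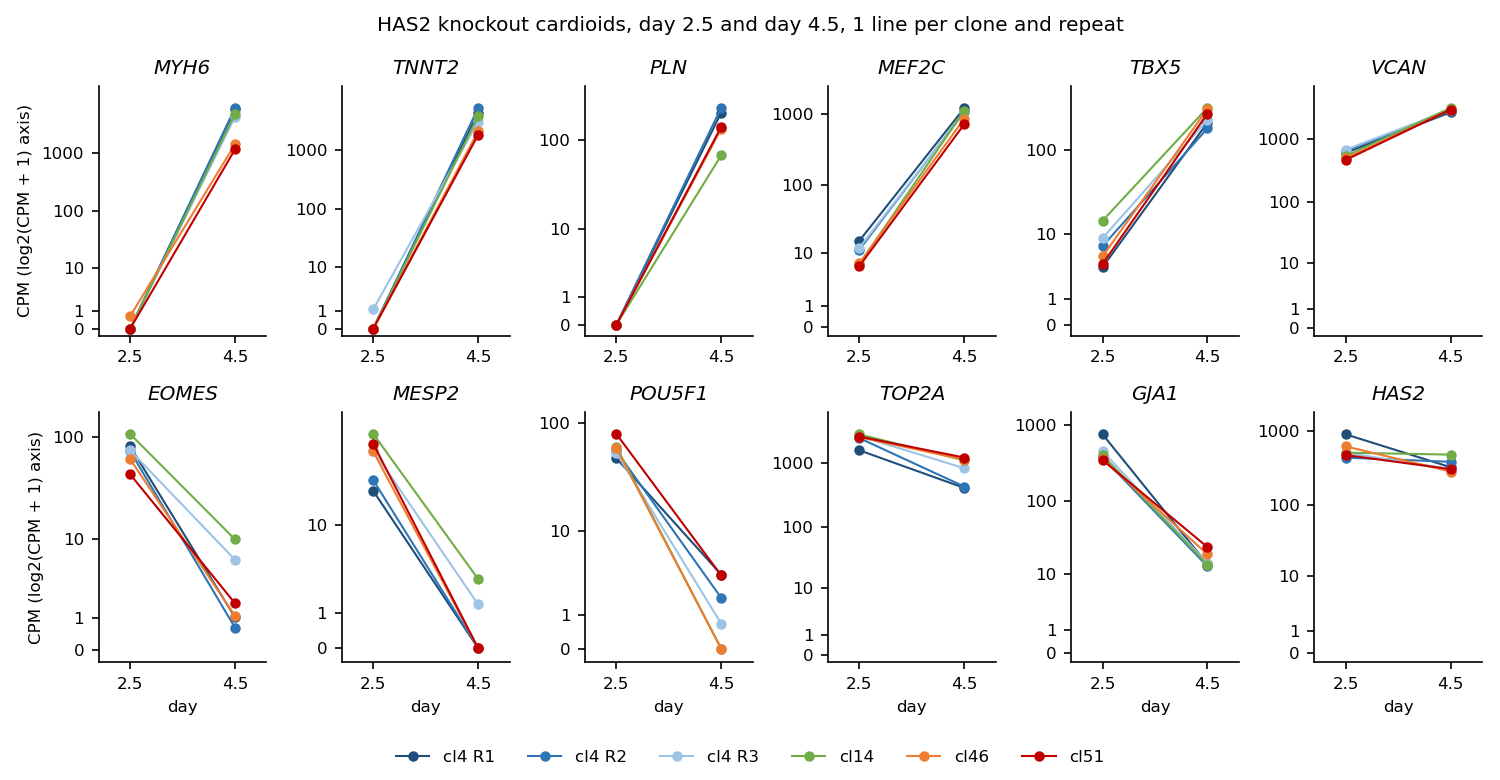
CPM of 12 genes in the knockout libraries at day 2.5 and day 4.5, on a log2(CPM + 1) axis, with each line joining the libraries of 1 clone and repeat. The lines of MYH6, TNNT2, PLN, MEF2C, TBX5 and VCAN climb in every clone, those of EOMES, MESP2, POU5F1, TOP2A and GJA1 drop in every clone, and the day ranges of HAS2 overlap.

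Most regulators of the primitive streak and early mesoderm that were called fell between the days. Of 13 measured members, 7 fell (TBX6, MESP2, EOMES, MESP1, LHX1, MIXL1 and FOXH1), 1 rose (PDGFRA) and 5 did not pass (TBXT, GSC, EVX1, SP5 and KDR). The median log2 fold change of the list was −2.32, beside 3.7e-05 over all genes tested, of which 14.9% fell and 15.6% rose. EOMES, the T-box factor that starts cardiac mesoderm, went from 74.4 CPM (44.2–108) to 1.41 CPM (0.611–9.97), a log2 fold change of −4.49 (SE 0.53, adjusted p = 9.09e-09). MESP1, the earliest marker of heart-forming mesoderm, went from 18.8 CPM (11.5–21.8) to 0.523 CPM (0–5.70), a log2 fold change of −3.33 (SE 0.52, adjusted p = 2.12e-06). MESP2, its neighbour in the genome and a segmentation factor, went from 45.7 CPM (20.5–64.2) to 0 CPM (0–2.85), a log2 fold change of −5.99 (SE 0.60, adjusted p = 1.78e-10). None of the 3 overlapped between the days. LHX1, a homeobox factor of the streak, fell from 719 CPM (677–818) to 146 CPM (111–208), and MIXL1, a homeobox factor of mesendoderm, from 18.1 CPM (9.55–28.1) to 8.55 CPM (3.48–13.5). The log2 fold changes were −2.19 and −1.17 (adjusted p = 3.87e-10 and 0.00568). MIXL1 lost its call without cl46 and cl51 (adjusted p = 0.163). PDGFRA, the platelet-derived growth factor receptor that marks cardiac mesoderm, moved the other way by a small margin, from 265 CPM (193–395) to 409 CPM (335–486), a log2 fold change of 0.55 (SE 0.21, adjusted p = 0.0465). That call ended in 8 of 12 cases in which 1 library was left out, with an adjusted p of up to 0.12, as well as without cl46 and cl51 (0.0604) and without cl4 R1 (0.073). With a block for each clone and repeat PDGFRA was called (adjusted p = 9.33e-04).

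Pluripotency genes went down with them. Of 11 measured, 8 fell (TDGF1, POU5F1, ZFP42, SOX2, SALL4, DPPA4, DNMT3B and LIN28A) and none rose, where 14.9% of all genes fell. The list had a median log2 fold change of −1.97, or −1.51 with genes at the floor set to their bound. A gene counts as at the floor where no library of a day had more than 3 counts. Its fold is then given as a lower bound, the mean CPM of the other day over the mean CPM of 3 counts. That bound holds for the group means, not for the median or for each library. POU5F1, the octamer factor that holds stem cells undifferentiated, fell from 57.7 CPM (48.1–79.8) to 1.25 CPM (0–3.56), a log2 fold change of −5.10 (SE 0.42, adjusted p = 1.34e-12). It overlaps TCF19 on the other strand, and the strand setting of the counting is not given in the sources used here. SALL4, a zinc finger factor of stem cells, went from 467 CPM (398–841) to 131 CPM (100–162), a log2 fold change of −1.97 (SE 0.29, adjusted p = 1.02e-06). DPPA4 went from 130.0 CPM (118–151) to 44.6 CPM (26.9–65.5) and LIN28A, which blocks the maturation of let-7 microRNAs, from 476 CPM (369–673) to 269.8 CPM (186–350.3). SALL4 and DPPA4 were thus clearly above the floor in every library of day 4.5, whereas POU5F1 was close to the floor. TDGF1, the co-receptor of NODAL, stood at 12.4 CPM (7.78–14.6) at day 2.5 and at the floor at day 4.5, at least 6.55-fold lower. LINC00458, a long noncoding RNA of stem cells, fell from 172 CPM (129–244) to 1.41 CPM (0–2.85), a log2 fold change of −6.99 (SE 0.76, adjusted p = 3.02e-09).

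Markers of somite mesoderm, the neighbour of the heart field in the embryo, fell to near the floor. All 6 measured fell (RIPPLY1, TBX6, TCF15, FOXC2, UNCX and PAX7), beside 14.9% of all genes. The summed level of the 13 listed went from 142 CPM (119–235) to 11.5 CPM (1.83–17.4). TCF15, a bHLH factor of somites, fell from 21.4 CPM (12.03–33.9) to 0.894 CPM (0–2.54) and FOXC2, a forkhead factor, from 69.8 CPM (49.6–158) to 6.05 CPM (0–7.54). Their log2 fold changes were −4.13 and −3.93 (adjusted p = 4.66e-07 and 1.45e-08). Of the 7 markers below the filter, MSGN1 and MEOX2 were among 3 that stayed at the floor on both days.

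Far more cardiac transcription factors rose than fell. Of 21 measured, 11 rose (SMYD1, MEF2C, TBX5, NKX2-5, TBX2, MYOCD, MEF2A, HAND2, GATA4 and ISL1 among them), 2 fell, including HAND1, and 8 did not pass. Without cl46 and cl51, or without cl4 R1, 1 fell. The median log2 fold change was 1.76, and of all genes tested 15.6% rose and 14.9% fell. NKX2-5, the homeobox factor that defines the heart field, went from 14.1 CPM (7.66–22.9) to 408 CPM (242–646), a log2 fold change of 4.89 (SE 0.67, adjusted p = 1.95e-07). TBX5, the T-box factor of the left ventricle and atria, went from 6.05 CPM (3.61–14.6) to 240.2 CPM (176–303), a log2 fold change of 5.005 (SE 0.36, adjusted p = 1.85e-12). MEF2C, a MADS-box factor that drives muscle genes, went from 9.24 CPM (6.31–15.6) to 1082 CPM (727–1232), a log2 fold change of 6.74 (SE 0.37, adjusted p = 1.60e-17). In each of these the 6 day 4.5 libraries lay above all 6 of day 2.5. GATA4 was already well expressed at day 2.5, at 61.3 CPM (55.4–123), and reached 255 CPM (183–286), a log2 fold change of 1.76 (SE 0.33, adjusted p = 3.68e-05), while HAND2 went from 61.1 CPM (38.8–85.4) to 322 CPM (199.8–338), a log2 fold change of 2.27 (SE 0.23, adjusted p = 3.44e-10). MYOCD, the coactivator that pairs with serum response factor (SRF), went from 132.4 CPM (70.02–207) to 853 CPM (622–1187), a log2 fold change of 2.65 (SE 0.48, adjusted p = 3.29e-05). SMYD1, a muscle-specific histone methyltransferase, was at the floor at day 2.5 and at 86.7 CPM (51.2–156) at day 4.5, at least 46.0-fold higher (adjusted p = 1.22e-11).

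Members tied to other parts of the heart were mixed. ISL1, the LIM-homeobox factor of the second heart field, stood at 58.2 CPM (45.4–75.8) at day 2.5 and 130.1 CPM (48.2–197) at day 4.5 (log2 fold change 1.04, SE 0.35, adjusted p = 0.0185). Its day 4.5 values in cl46 and cl51 were 197 and 165 CPM, above the 4 others, and without these clones it did not pass (adjusted p = 0.327). HAND1, the bHLH factor of first heart field and extraembryonic mesoderm, was lower at day 4.5, at 158 CPM (115–234) after 298 CPM (199.5–427), a log2 fold change of −0.87 (SE 0.31, adjusted p = 0.0308). Its call ended in 6 of 12 cases with 1 library left out (adjusted p up to 0.0729) and without cl46 and cl51 (0.134). The log2 fold change without these clones was −0.86. With a block for each clone and repeat HAND1 was called (adjusted p = 8.18e-04). Among 10 measured genes of the atria and venous pole, 5 rose, including MYL7, NR2F1, NR2F2 and HEY1, and none fell. The shares over all genes were 15.6% and 14.9%. NR2F2, an orphan nuclear receptor of atrial identity, went from 4.95 CPM (3.66–10.6) to 66.4 CPM (45.2–97.5), a log2 fold change of 3.55 (SE 0.45, adjusted p = 3.70e-08). NR2F1, its close relative, reached 35.0 and 31.3 CPM in cl46 and cl51 and 4.70 to 8.54 CPM in the 4 other libraries of day 4.5. SHOX2, KCNA5, KCNJ3, GJA5 and NPPA, further atrial or pacemaker genes, did not pass.

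**Figure D2:**
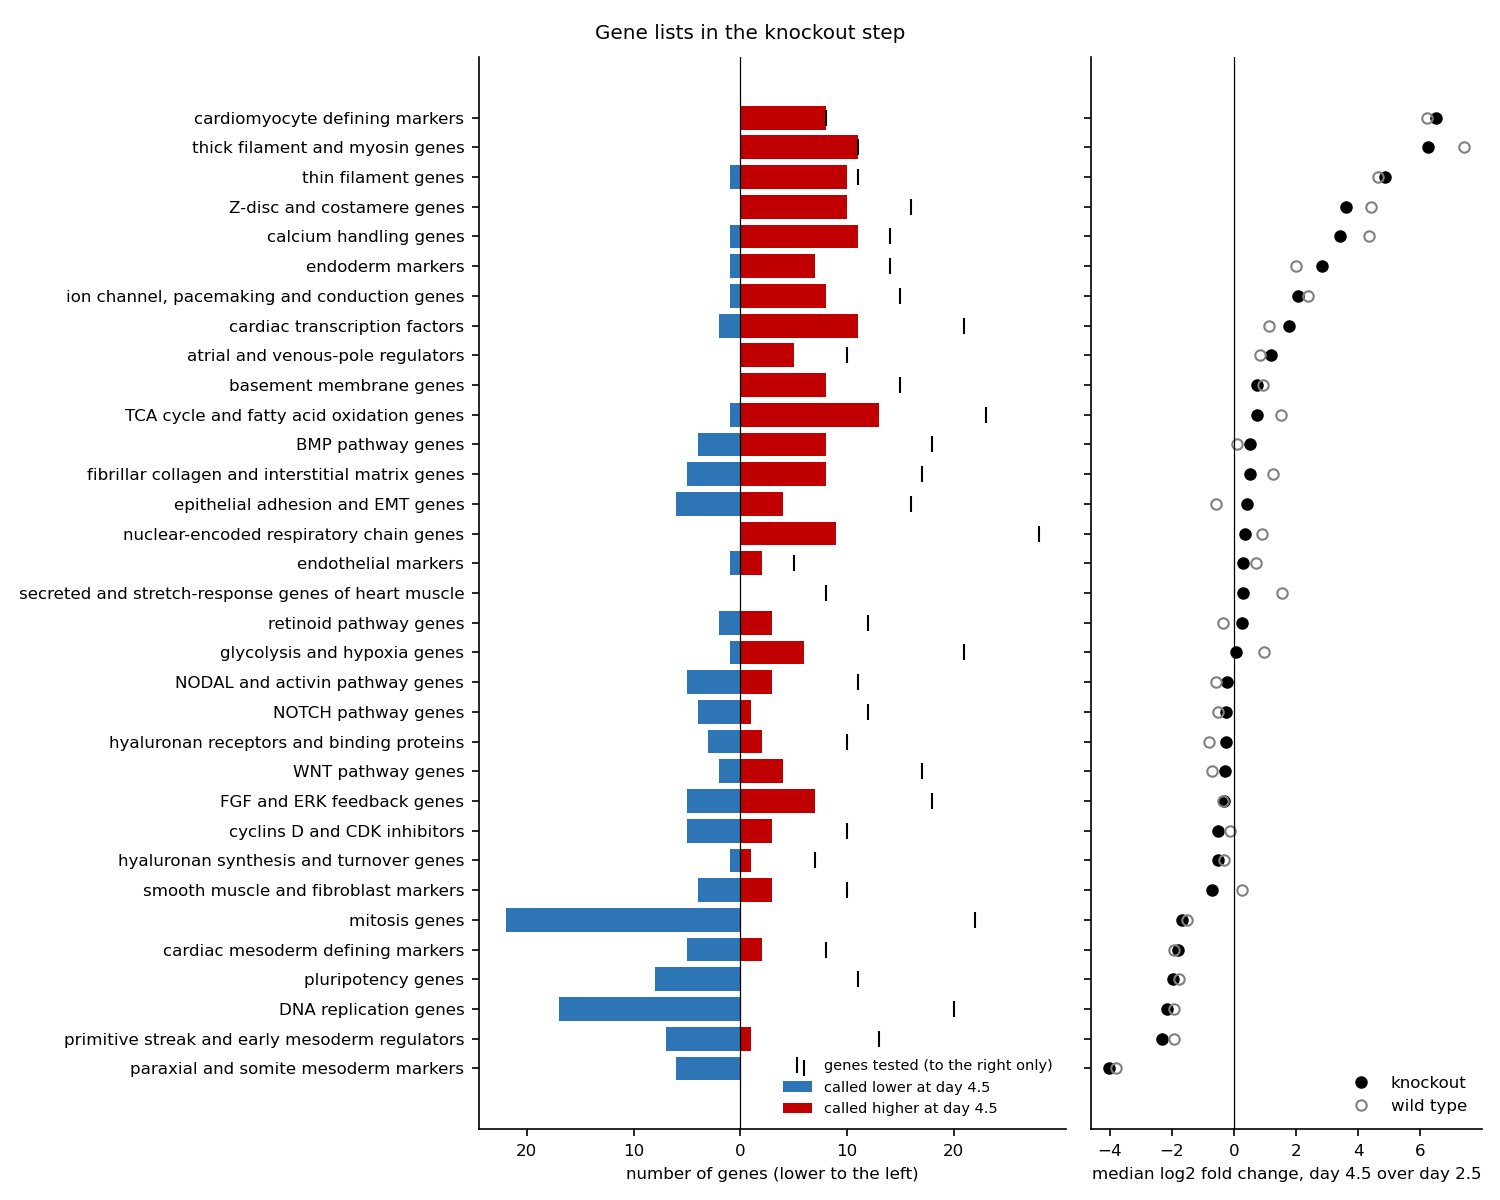
Left, the number of genes of each list called higher (to the right) and lower (to the left) in the knockout step, with a tick at the number tested; right, the median log2 fold change of each list in the knockout step (filled) and the wild-type step (open). All 22 mitosis genes lie on the lower side and all 11 measured thick filament genes on the higher side, and the knockout and wild-type medians are −1.68 and −1.52 for mitosis genes and 6.24 and 7.41 for thick filament genes.

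Genes of the contractile machinery rose steeply, where 15.6% of all genes tested rose. All 11 measured thick filament and myosin genes rose, as did 10 of 11 thin filament genes and 10 of 16 Z-disc and costamere genes. The median log2 fold changes were 6.24, 4.88 and 3.59, or 4.83, 4.12 and 3.39 with genes at the day 2.5 floor set to their bound. MYH6, the alpha cardiac myosin heavy chain (chr14:23381990-23408277, reverse strand, GRCh38), had 0 to 0.638 CPM at day 2.5 and 4349 CPM (1141–5785) at day 4.5, at least 1818-fold higher (adjusted p = 6.07e-19). At day 7.5 the knockout libraries, which were cl4 R2, cl4 R3 and cl14 alone, held 8517 CPM (8144–9922). Clones cl46 and cl51 had no library of that day. MYH7, the beta chain, is nearly identical in sequence, so reads may have been split between them, and it was at the floor at day 2.5 and at 9.92 CPM (4.05–12.1) at day 4.5, at least 4.54-fold higher. The regulatory and essential light chains followed: MYL7, the atrial light chain, went from 29.1 CPM (9.57–36.3) to 372 CPM (99.1–789), a log2 fold change of 3.85 (SE 0.45, adjusted p = 5.43e-09), and MYL4 from 17.8 CPM (12.8–23.4) to 895 CPM (389–1797), a log2 fold change of 5.82 (SE 0.40, adjusted p = 1.12e-14). MYL3, the ventricular essential light chain, went from 4.14 CPM (2.41–7.002) to 73.7 CPM (11.6–281), a log2 fold change of 4.61 (SE 0.59, adjusted p = 1.09e-07), and MYBPC3, cardiac myosin-binding protein C, from 3.63 CPM (1.28–7.78) to 427 CPM (162–597), a log2 fold change of 6.58 (SE 0.39, adjusted p = 9.31e-17). The days did not overlap for any of these 4. UNC45B, the chaperone that folds myosin heads, and SMPX, a small muscle protein, were at the floor at day 2.5 and at least 78.5-fold and 28.5-fold higher at day 4.5. MYL2, the ventricular regulatory light chain, was among 3 listed genes that stayed at the floor on both days.

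Thin filament genes changed just as uniformly, with 1 exception. TNNT2, cardiac troponin T (chr1:201359008-201377762, reverse strand), was at the floor at day 2.5, reached 3366 CPM (1806–5108) and was at least 1611-fold higher (adjusted p = 1.34e-19). TNNT2 overlaps LAD1 on the same strand, and counts of the pair cannot be separated here. TNNI1, slow troponin I, the form of fetal heart, went from 11.2 CPM (6.27–15.6) to 1378 CPM (972–2181), a log2 fold change of 7.04 (SE 0.40, adjusted p = 9.27e-15), while TNNI3, the adult cardiac form, rose from 1.41 CPM (0–4.70) to 26.0 CPM (1.08–40.6), a log2 fold change of 3.58 (SE 0.71, adjusted p = 1.35e-04), with days that overlapped and no call in the third library-number block alone (adjusted p = 0.0975). ACTC1, cardiac actin, went from 30.1 CPM (21.7–72.2) to 1541 CPM (544–1949), a log2 fold change of 5.27 (SE 0.46, adjusted p = 4.90e-12), and TPM1, alpha tropomyosin, from 169 CPM (116–205) to 4962 CPM (3642–5602), a log2 fold change of 4.88 (SE 0.32, adjusted p = 2.14e-15). Of these, only TNNI3 overlapped between the days. TNNT1, slow skeletal troponin T, fell from 81.2 CPM (44.2–112) to 3.21 CPM (1.22–7.11), a log2 fold change of −4.40 (SE 0.41, adjusted p = 3.62e-11), and its days did not overlap. Of the Z-disc genes, ACTN2, alpha-actinin of muscle, went from 0 CPM (0–2.55) to 93.0 CPM (34.8–151), a log2 fold change of 6.85 (SE 0.57, adjusted p = 1.53e-12). TTN, the giant spring protein titin, was read at 1282 CPM (760.5–1638) and then 18875 CPM (11277–26981), a log2 fold change of 3.92 (SE 0.64, adjusted p = 5.98e-06). XIRP1, an actin-binding protein of the intercalated disc, was at the floor at day 2.5 and at least 49.8-fold higher at day 4.5, with 96.6 CPM (31.3–178). The 6 Z-disc genes that did not pass were MYOZ2, PDLIM3, DES, FLNC, ANKRD1 and DMD.

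The stretch of DNA just upstream of these genes is shown for 4 of them because their letters hold the sites that muscle factors are known to bind. Promoters of 30 of the 43 listed sarcomere genes were found in RefSeq (GRCh38.p14), and the 250 bases before the gene start were searched on both strands. Capitals below mark a CArG box (the SRF site), a MEF2 site, a GATA site (AGATAA with either A or T in front and either A or G at the end) or TATAAA in the 150 bases before the start, 5′ to 3′ on the strand of the gene.
ACTC1 (chr15:34795550-34795699, reverse strand): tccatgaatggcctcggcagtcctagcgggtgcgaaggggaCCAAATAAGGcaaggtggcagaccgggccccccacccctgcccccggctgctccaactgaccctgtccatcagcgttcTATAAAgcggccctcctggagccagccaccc
MYL7 (chr7:44141333-44141482, reverse strand): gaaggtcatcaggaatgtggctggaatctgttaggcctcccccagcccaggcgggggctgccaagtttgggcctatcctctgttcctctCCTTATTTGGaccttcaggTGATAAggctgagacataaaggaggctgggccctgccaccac
XIRP1 (chr3:39192596-39192745, reverse strand): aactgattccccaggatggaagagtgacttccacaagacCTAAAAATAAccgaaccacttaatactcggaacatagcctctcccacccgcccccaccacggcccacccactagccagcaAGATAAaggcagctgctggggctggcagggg
SMPX (chrX:21758117-21758266, reverse strand): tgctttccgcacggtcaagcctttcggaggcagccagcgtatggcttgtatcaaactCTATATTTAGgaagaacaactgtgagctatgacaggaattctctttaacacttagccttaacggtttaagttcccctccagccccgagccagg
The CArG box began 109 bases before the start of ACTC1 and 61 before that of MYL7, and the MEF2 site 111 bases before the start of XIRP1 and 93 before that of SMPX. MYL7 also held TGATAA at 42 bases, XIRP1 AGATAA at 31 bases and ACTC1 TATAAA at 31 bases. A CArG box was present in 5 of the 30 promoters (16.7%) and in 1.14% of all 27303 promoters, or 1.08% of those of 10332 genes tested here. A MEF2 site was present in 7 (23.3%, beside 2.9% and 1.48%) and a GATA site in 13 (43.3%, beside 22.9% and 13.1%). CATTCC, the TEAD site, was found in 8 (26.7%, beside 11.9% and 9.23%) and TATAAA in 6 (20%, beside 11.1% and 5.27%). The matches are not confined to genes that rose. ANKRD1, DMD, MYOZ2 and PDLIM3, which were not called, held a GATA site, as did LMOD3 and MYBPHL, which were below the filter. MYOZ2 also held a MEF2 site, and TNNT1, which fell, TATAAA. These are matches of letters, no binding was measured, and a link to the rise was not tested.

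Calcium handling genes rose with the sarcomere. Of 14 measured, 11 rose and 1 fell, where 15.6% of all genes rose and 14.9% fell. The list had a median log2 fold change of 3.42, and its summed level went from 389 CPM (340.4–462) to 3084 CPM (1939–4572). RYR2, the release channel of the sarcoplasmic reticulum, went from 12.2 CPM (5.73–20.4) to 855 CPM (501–1222), a log2 fold change of 6.17 (SE 0.47, adjusted p = 1.72e-13). SLC8A1, the sodium-calcium exchanger, went from 3.35 CPM (0–5.56) to 691 CPM (366–1006), a log2 fold change of 7.63 (SE 0.54, adjusted p = 1.81e-14), and CACNA1C, the pore of the L-type channel, from 2.32 CPM (0–6.02) to 52.0 CPM (32.9–62.5), a log2 fold change of 4.22 (SE 0.37, adjusted p = 4.90e-12). ATP2A2, the calcium pump of the reticulum, was present from the start and changed less, from 125 CPM (114–235) to 366 CPM (244–470.5), a log2 fold change of 1.41 (SE 0.29, adjusted p = 2.06e-04). Its brake PLN, phospholamban, was at 0 in all 6 libraries of day 2.5 and at 139 CPM (68.3–227) at day 4.5, at least 73.2-fold higher, with the limit that PLN overlaps CEP85L on the other strand. CACNA2D1, an auxiliary channel subunit, was lower at day 4.5, at 19.2 CPM (9.40–37.2) after 40.5 CPM (29.2–52.9), a log2 fold change of −0.89 (SE 0.30, adjusted p = 0.0229), and lost its call without cl4 R1 at both days (adjusted p = 0.0698) and without cl4 R2 or cl4 R3 of day 4.5 (adjusted p up to 0.0693).

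Ion channel and conduction genes split in 2 directions. Of the 15 measured, 8 rose (CACNA1D, KCNQ1, KCNJ5, POPDC2, BVES, HCN4 and KCNH2 among them) and GJA1 fell, beside 15.6% and 14.9% of all genes. HCN4, the pacemaker channel, went from 3.505 CPM (1.11–7.22) to 19.4 CPM (8.54–68.6), a log2 fold change of 3.12 (SE 0.91, adjusted p = 0.00714, and 0.073 by limma-voom), and KCNH2, the rapid delayed rectifier, from 9.54 CPM (5.74–16.9) to 42.2 CPM (28.0–60.5), a log2 fold change of 2.06 (SE 0.34, adjusted p = 5.70e-06). GJA1, the gap junction protein connexin 43, dropped from 384 CPM (343–749.6) to 13.9 CPM (12.8–23.7), a log2 fold change of −4.75 (SE 0.25, adjusted p = 5.41e-18), and its highest day 2.5 value was that of cl4 R1. The muscle-secreted and stretch-response genes NPPA, NPPB, ANKRD1, CCN1, CCN2, AMOTL2, AJUBA and LATS2 gave no call in either direction among 8 measured, where 30.5% of all genes were called. In the knockout the medians of NPPA, NPPB, CCN1 and CCN2 were at most 2.07 CPM on either day, near or below the floor, where a change is hard to call. In the wild-type step 4 of the 8 rose and 1 fell, and the direct test of the steps, given below, called 1, ANKRD1.

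The knockout clones did not reach the same sarcomere level by day 4.5, an observation made after the values were seen. Of 38 measured sarcomere genes 31 rose, and in 29 of these cl46 and cl51 both lay below all 4 other knockout libraries. The same order held in 23.3% of all genes that rose and in 7.99% of all genes tested, and the opposite order in 11.8% and 14.7%. The median ratio of the mean of cl46 and cl51 to the mean of the 4 others was 0.336. MYH6 stood at 5506, 5785 and 4103 CPM in the repeats of cl4, 4594 in cl14, 1394 in cl46 and 1141 in cl51. TNNT2 followed with 4244, 5108, 3028, 3704, 2074 and 1806 CPM in that order. COL3A1, a fibrillar collagen of mesenchyme, ran the other way, with 25.4, 47.05, 114, 88.3, 308 and 313 CPM. The summed sarcomere level was 53695, 57031, 40035, 43242, 25627 and 23127 CPM in that order, where the day 2.5 libraries held 1609 to 2567 CPM and the wild-type libraries of day 4.5 46824 to 83046. All 6 libraries were thus far above day 2.5. A planned test of the step of cl4 against that of the other clones, which puts cl14 with cl46 and cl51, called 0 of 12245 genes by edgeR (0%; smallest adjusted p 0.0545), with 1088 at an unadjusted p under 0.05 (8.89%). DESeq2 called 35, and the fit with a block for each clone and repeat 8. Without cl4 R3 of day 4.5 it called 63, without cl14 of day 4.5 17, without cl4 R1 of day 2.5 8 and without cl4 R3 or cl14 of day 2.5 1 each. Clone and library cannot be told apart for cl14, cl46 and cl51, which had 1 library a day.

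**Figure D3:**
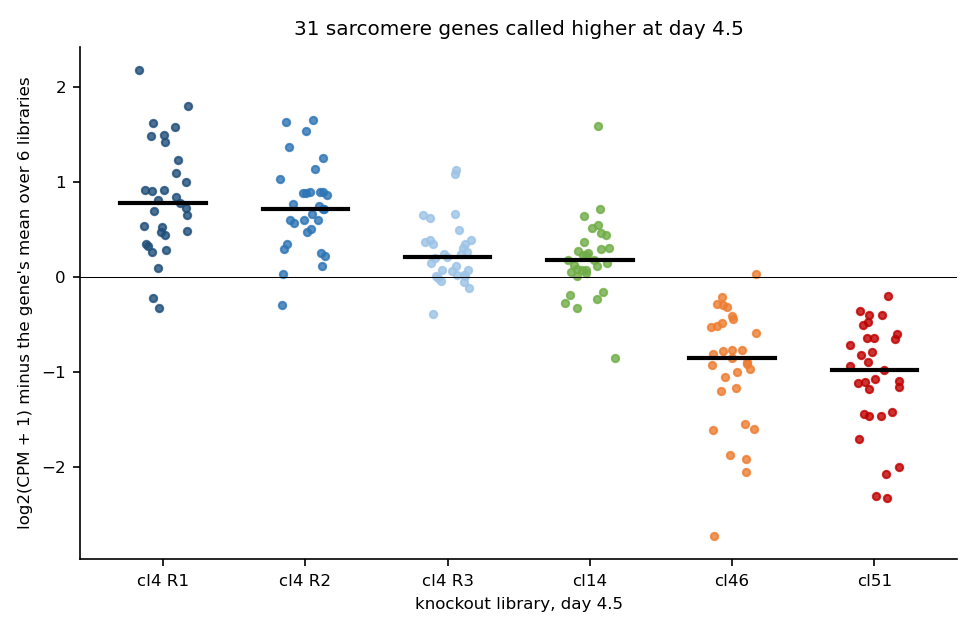
Deviation of log2(CPM + 1) from the gene's mean over the 6 knockout libraries of day 4.5, for the 31 sarcomere genes that rose; each point is a gene and each bar the library's median. The medians are 0.79, 0.72 and 0.21 in cl4 R1, R2 and R3, 0.18 in cl14, −0.86 in cl46 and −0.98 in cl51.

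Cell division genes fell as the muscle genes rose. All 22 mitosis genes were lower at day 4.5, 20 of them without overlap (11.0% of all genes were apart in that direction), with a median log2 fold change of −1.68. Their summed level went from 7839 CPM (5451–8287) to 2666 CPM (1308–3458). CDK1, the kinase that starts mitosis, fell from 169.8 CPM (135–184) to 35.4 CPM (26.4–63.1), a log2 fold change of −1.98 (SE 0.17, adjusted p = 2.80e-12), and CCNB1, its cyclin partner, from 221 CPM (179.7–242) to 67.8 CPM (30.5–80.5), a log2 fold change of −1.83 (SE 0.26, adjusted p = 5.45e-07). TOP2A, the topoisomerase that untangles chromosomes, went from 2609 CPM (1606–2853) to 978 CPM (412–1237), a log2 fold change of −1.53 (SE 0.40, adjusted p = 0.00234), and MKI67, the proliferation marker Ki-67, from 755 CPM (409–818) to 266 CPM (146–305), a log2 fold change of −1.58 (SE 0.41, adjusted p = 0.00263). The lowest day 2.5 value of TOP2A, MKI67 and AURKA came from cl4 R1 each time. AURKA, the spindle kinase, was at 199 CPM (101–215) and then 105 CPM (54.3–129), a log2 fold change of −0.93 (SE 0.21, adjusted p = 4.79e-04), and its days overlapped through that library.

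DNA replication genes fell with them. Of 20 measured, 17 fell, 3 did not pass, CCNE2 and POLA1 among them, and the median log2 fold change was −2.16. Their summed level went from 1984 CPM (1929.8–2528) to 562 CPM (413–742). CDC6, which loads the replicative helicase, fell from 87.3 CPM (73.4–112) to 14.4 CPM (7.62–15.6), a log2 fold change of −2.70 (SE 0.25, adjusted p = 1.49e-11), MCM4, a subunit of that helicase, from 182 CPM (160.1–238) to 37.2 CPM (32.5–50.5), a log2 fold change of −2.21 (SE 0.17, adjusted p = 3.10e-13), and PCNA, the sliding clamp, from 57.4 CPM (52.8–185) to 12.7 CPM (9.65–22.6), a log2 fold change of −2.47 (SE 0.37, adjusted p = 1.28e-06). Regulators of the entry into the cycle went in both directions. CCND1 and CCND2, the D cyclins, fell from 45.5 CPM (38.5–104) to 7.49 CPM (2.03–16.2) and from 313 CPM (256–339) to 137 CPM (91.7–256). CDKN1B, the inhibitor p27, rose from 35.6 CPM (27.4–38.5) to 71.6 CPM (56.4–89.2), a log2 fold change of 1.07 (SE 0.21, adjusted p = 1.19e-04), while CDKN1A, the inhibitor p21, fell from 8.67 CPM (8.29–16.1) to 3.86 CPM (1.62–5.21), a log2 fold change of −1.45 (SE 0.36, adjusted p = 0.00168).

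Promoters of 3 of the mitosis genes are shown because CCAAT boxes and the cell cycle homology region, here TTTGAA, are the textbook elements of genes expressed late in the cell cycle. Capitals mark CCAAT and TTTGAA, with the same build, length and search as above.
CCNB2 (chr15:59104996-59105145, forward strand): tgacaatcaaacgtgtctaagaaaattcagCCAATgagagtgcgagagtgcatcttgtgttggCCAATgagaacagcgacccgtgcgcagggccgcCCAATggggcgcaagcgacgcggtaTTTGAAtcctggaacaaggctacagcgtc
PLK1 (chr16:23678739-23678888, forward strand): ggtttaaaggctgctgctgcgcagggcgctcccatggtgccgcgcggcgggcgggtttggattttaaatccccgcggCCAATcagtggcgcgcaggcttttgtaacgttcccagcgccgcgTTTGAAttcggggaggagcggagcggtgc
CDC20 (chr1:43358831-43358980, forward strand): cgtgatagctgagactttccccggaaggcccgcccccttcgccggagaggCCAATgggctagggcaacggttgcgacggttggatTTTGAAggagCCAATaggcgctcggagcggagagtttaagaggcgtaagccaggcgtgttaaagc
CCNB2, a B-type cyclin, held CCAAT at 120, 87 and 54 bases before its start and TTTGAA at 29. PLK1, the polo-like kinase, held CCAAT at 73 bases and TTTGAA at 29, and CDC20, an activator of the anaphase-promoting complex, CCAAT at 100 and 55 bases and TTTGAA at 65. Over the 18 mitosis promoters found, CCAAT was present in 13 (72.2%), beside 33% of all promoters and 35.5% of those of genes tested. TTTGAA was present in 9 (50%), beside 13.6% and 8.46%. Of 16 replication promoters 12 held CCAAT (75%) and 1 held TTTGAA (6.25%). GGGCGG, the GC box of SP factors, was in 15 of the 18 mitosis promoters (83.3%), beside 42.3% and 67.7%.

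Of 7 measured genes of hyaluronan synthesis and turnover 2 were called, where 30.5% of all genes were. CEMIP2, a hyaluronan-degrading membrane protein, rose from 21.9 CPM (11.5–27.6) to 68.3 CPM (52.0–81.9), a log2 fold change of 1.69 (SE 0.22, adjusted p = 1.11e-07) and HAS2 fell, a call that was lost without cl46 and cl51 and without cl4 R1. HAS1 and HAS3, the other synthases, did not pass the low-count filter. UGDH, which makes the UDP-glucuronic acid that HAS2 consumes, was at 53.3 CPM (46.0–59.1) and 37.4 CPM (26.9–42.5) and did not pass (log2 fold change −0.58, SE 0.25, adjusted p = 0.0716), but did with a block for each clone and repeat (adjusted p = 0.00588). Among 10 genes that bind hyaluronan, VCAN and HAPLN1 rose and CD44, HMMR and NCAN fell. VCAN, the proteoglycan versican that links to hyaluronan, went from 572 CPM (468–679) to 2931 CPM (2665–3119.9), a log2 fold change of 2.35 (SE 0.30, adjusted p = 4.02e-08), and HAPLN1, the link protein that locks the pair, from 102 CPM (74.5–163) to 460.0 CPM (276–643), a log2 fold change of 2.06 (SE 0.31, adjusted p = 1.38e-06). These 2 made up most of the group's summed level, which went from 918 CPM (836–1057) to 3570.3 CPM (3039–3675). CD44, the main cell surface receptor, fell from 4.64 CPM (3.18–10.8) to the floor at day 4.5, at least 3.14-fold lower. HMMR is also a mitotic spindle protein and fell from 201 CPM (139.6–222) to 28.99 CPM (20.6–52.2), a log2 fold change of −2.52 (SE 0.46, adjusted p = 3.02e-05).

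Other matrix genes changed in both directions, where 15.6% of all genes tested rose and 14.9% fell. Of 15 basement membrane genes 8 rose and none fell, while 5 rose without cl46 and cl51 and 2 fell in the third block alone. They included LAMA4, a laminin chain that was at the floor at day 2.5 and at 39.2 CPM (22.6–99.0) at day 4.5 (at least 22.9-fold higher), and NID2, nidogen-2, which went from 7.33 CPM (5.09–18.5) to 271 CPM (241–310.4), a log2 fold change of 4.93 (SE 0.42, adjusted p = 3.41e-12). Of 17 interstitial matrix genes 8 rose and 5 fell. The number that fell was 3 without cl46 and cl51, and also 3 without the day 2.5 library of cl4 R1. FN1, fibronectin, went from 805 CPM (634–856) to 6839 CPM (5127–7894), a log2 fold change of 3.08 (SE 0.25, adjusted p = 6.36e-13), and COL2A1, a collagen of cartilage and early embryos, from 68.9 CPM (55.7–86.2) to 126 CPM (104–146), a log2 fold change of 0.84 (SE 0.20, adjusted p = 0.00115). THBS1, thrombospondin-1, was at the floor at day 2.5 and at least 29.8-fold higher at day 4.5, and COL3A1 at least 72.3-fold. The day 4.5 mean of COL3A1 was raised by cl46 and cl51, at 308 and 313 CPM beside 25.4 to 114 CPM in the others. SPARC, a collagen-binding glycoprotein, fell from 382 CPM (311–517) to 125 CPM (88.9–143), a log2 fold change of −1.68 (SE 0.24, adjusted p = 3.39e-07). Adhesion genes of epithelial and mesenchymal cells gave 4 that rose and 6 that fell of 16 measured, with 2 that rose without cl46 and cl51. CDH2, N-cadherin of heart muscle junctions, rose from 273 CPM (163–311) to 529.9 CPM (453–636), a log2 fold change of 1.16 (SE 0.19, adjusted p = 6.81e-06), while SNAI2, a repressor of epithelial genes, fell from 45.0 CPM (32.5–66.2) to 1.01 CPM (0–5.92), a log2 fold change of −4.28 (SE 0.50, adjusted p = 7.00e-09). The keratin KRT8 fell from 420.0 CPM (327–494) to 183 CPM (125–249.6), a log2 fold change of −1.13 (SE 0.26, adjusted p = 6.47e-04) and KRT19 from 901 CPM (708–1041) to 300.3 CPM (162–429.7), a log2 fold change of −1.68 (SE 0.22, adjusted p = 1.04e-07).

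Signalling genes changed in both directions within each pathway, and so did all genes tested, of which 15.6% rose and 14.9% fell. Of 17 WNT pathway genes 4 rose (WNT2, RSPO3, WNT11 and WNT5B) and 2 fell (LGR5 and TCF7). In the third block alone 7 rose, and without cl46 and cl51, or without cl4 R1, 1 fell. WNT2, a ligand of cardiac progenitors, was at the floor at day 2.5 and at 54.5 CPM (38.8–117) at day 4.5, at least 32.5-fold higher, and RSPO3, a secreted enhancer of WNT signals, went from 3.26 CPM (0–5.74) to 28.3 CPM (15.2–63.0), a log2 fold change of 3.14 (SE 0.62, adjusted p = 1.02e-04). Of 11 NODAL and activin genes 3 rose and 5 fell. LEFTY2, a secreted NODAL antagonist, fell from 68.2 CPM (55.0–118) to the floor, at least 42.9-fold lower, and CFC1, a NODAL co-receptor, from 91.4 CPM (59.0–111) to 11.5 CPM (7.83–27.2), a log2 fold change of −2.69 (SE 0.38, adjusted p = 1.45e-06). FST, follistatin, which traps activin, rose from 5.55 CPM (3.44–14.1) to 257 CPM (208–323), a log2 fold change of 5.11 (SE 0.38, adjusted p = 5.54e-14). NODAL itself was at the floor on both days.

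Of 18 BMP genes 8 rose and 4 fell. BMP5 and BMP7, ligands of the heart tube, went from 22.7 CPM (16.6–36.4) to 282 CPM (217–335) and from 12.4 CPM (10.01–17.8) to 191 CPM (104–366), with log2 fold changes of 3.61 and 4.06 (adjusted p = 2.26e-14 and 1.73e-10). The lowest day 4.5 library of each ligand was above the highest of day 2.5. BMP4, the ligand also supplied in the medium, fell from 422 CPM (301–463) to 164 CPM (44.7–214), a log2 fold change of −1.51 (SE 0.29, adjusted p = 6.71e-05), and MSX2, a target of the pathway, from 65.5 CPM (34.5–82.1) to 17.4 CPM (8.06–39.4), a log2 fold change of −1.52 (SE 0.27, adjusted p = 2.63e-05). Among 18 FGF genes 7 rose and 5 fell. The ligand FGF9 was at the floor at day 2.5 and at least 7.67-fold higher at day 4.5, and DUSP6, the phosphatase that damps ERK, rose from 163 CPM (92.9–208) to 583 CPM (339.5–731), a log2 fold change of 1.89 (SE 0.32, adjusted p = 1.17e-05). FGFR1, a receptor, fell from 293 CPM (256–331) to 145 CPM (91.9–159), a log2 fold change of −1.15 (SE 0.15, adjusted p = 5.56e-08). Of 12 NOTCH genes 4 fell (DLL1, DLL3, NOTCH1 and LFNG), against 2 without cl4 R1, and the target HEY1 rose, from 18.02 CPM (8.88–27.7) to 78.2 CPM (20.8–106), a log2 fold change of 1.95 (SE 0.40, adjusted p = 1.80e-04). DLL3, a ligand of segmenting mesoderm, went from 201 CPM (148–259.9) to 12.4 CPM (7.94–23.5), a log2 fold change of −3.83 (SE 0.35, adjusted p = 1.22e-11). Of 12 retinoid genes 3 rose, including CYP26B1 and DHRS3, and CRABP1 and RARG fell. CRABP1, which binds retinoic acid in the cytosol, went from 22.7 CPM (13.1–59.7) to 0.605 CPM (0–5.79), a log2 fold change of −4.18 (SE 0.68, adjusted p = 6.23e-06).

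Genes of mitochondrial fuel use and of glycolysis both included members that rose. Of 23 measured genes of the TCA cycle and fatty acid oxidation, 13 rose and 1 fell, of 28 respiratory chain genes 9 rose and none fell, and of 21 glycolysis and hypoxia genes 6 rose and 1 fell, where 15.6% of all genes rose. The number of respiratory chain genes that rose was 4 without cl4 R1 and 3 in the third block alone. In the wild-type step 18, 17 and 14 genes of the same lists rose. The medians were 0.73, 0.35 and 0.07 in the knockout and 1.502, 0.89 and 0.96 in the wild type. The direct test of the difference of the steps, given below, called 1, 0 and 1 genes of these lists. PPARGC1A, the coactivator that drives mitochondrial biogenesis, was at the floor at day 2.5 and at least 35.3-fold higher at day 4.5. MB, myoglobin, went from 0.287 CPM (0–2.78) to 35.7 CPM (6.37–58.4), a log2 fold change of 5.15 (SE 0.75, adjusted p = 2.20e-06), and IDH3A, a subunit of isocitrate dehydrogenase, from 18.3 CPM (11.7–34.5) to 144 CPM (90.9–162), a log2 fold change of 2.67 (SE 0.20, adjusted p = 1.24e-13). ATP5MC1, a subunit of the ATP synthase ring, went from 86.5 CPM (80.8–99.9) to 219 CPM (139–351), a log2 fold change of 1.37 (SE 0.19, adjusted p = 2.88e-07). PDK1, the kinase that keeps pyruvate out of mitochondria, rose from 38.1 CPM (25.5–51.0) to 321 CPM (241–568), a log2 fold change of 3.29 (SE 0.31, adjusted p = 3.94e-11).

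Defining markers of endothelium, blood and skeletal muscle were at or near the floor, while several endoderm markers rose. The counts in this paragraph stand beside 15.6% of all genes that rose and 14.9% that fell. Of 14 endothelial markers 5 were measured, TEK and PLVAP rose (1 rose without cl46 and cl51 or without cl4 R1, and 4 in the third block alone), VWF fell, and the summed level was 27.8 CPM (10.9–52.9) and then 26.5 CPM (17.1–47.02). CDH5 and PECAM1, defining endothelial markers, did not pass the low-count filter. Blood markers summed to 2.90 CPM (1.20–6.37) and then 3.63 CPM (0.611–5.79), with 4 of 13 at 0 in all 12 libraries and 11 of 13 at the floor. Of 14 measured endoderm markers 7 rose (TTR, FGB, APOA2, APOB, TRH, HHEX and APOA1) and SOX17 fell, and their sum went from 138 CPM (77.5–197) to 278 CPM (214–351). APOA1, an apolipoprotein of liver and yolk sac, went from 4.57 CPM (1.72–8.28) to 32.4 CPM (19.9–48.9), a log2 fold change of 2.88 (SE 0.34, adjusted p = 7.20e-09), TTR, transthyretin, from the floor to 12.9 CPM (1.74–30.9), and SOX17, the early endoderm factor, from 21.5 CPM (2.30–44.5) to 0.641 CPM (0–2.54), a log2 fold change of −4.12 (SE 0.97, adjusted p = 9.37e-04, and 0.0646 by limma-voom). Epicardial markers summed to 909 CPM (712–1058) and 351 CPM (212–484), carried mostly by KRT19, which other epithelia also express, and WT1 and TCF21 did not pass the filter. MYOD1, MYF5 and MYOG, the regulators of skeletal muscle, were at 0 or at the floor on both days. Of 10 smooth muscle and fibroblast markers ACTA2, LMOD1 and CNN1 rose and MYH11, PDGFRB, TAGLN and MYLK fell. ACTA2, smooth muscle actin, which early cardiomyocytes also use, went from 0.522 CPM (0–4.81) to 277 CPM (60.3–470.3), a log2 fold change of 7.40 (SE 0.60, adjusted p = 6.36e-13). Of 12 neural markers NES alone rose among the 2 measured. The part of these cells in any result above was not tested.

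Genes outside the lists that met the naming rule included both secreted and intracellular proteins. TECRL, a protein of the endoplasmic reticulum linked to inherited arrhythmia, went from 1.47 CPM (0–2.30) to 801 CPM (700.1–1175), a log2 fold change of 9.35 (SE 0.46, adjusted p = 1.72e-16). TAFA4, a secreted chemokine-like protein, was at the floor at day 2.5 and at 75.6 CPM (46.3–155) at day 4.5, at least 40.0-fold higher. TGFB2, a growth factor of the heart cushions, went from 0.920 CPM (0–2.22) to 327 CPM (272–422), a log2 fold change of 8.32 (SE 0.54, adjusted p = 1.12e-14). Among those that fell, ASS1, argininosuccinate synthase, went from 135 CPM (94.0–177) to 2.03 CPM (0.508–2.90), a log2 fold change of −6.12 (SE 0.36, adjusted p = 6.78e-17), and TMEM132B from 87.8 CPM (53.4–139) to 1.32 CPM (0–2.32), a log2 fold change of −6.25 (SE 0.45, adjusted p = 2.78e-14). ZIC2, a zinc finger factor of the early embryo, went from 62.4 CPM (51.7–74.6) to 1.72 CPM (0.508–5.79), a log2 fold change of −4.85 (SE 0.53, adjusted p = 1.43e-09). The guidance cue SEMA5B, the metalloprotease ADAM12 and the neuropeptide precursor NTS fell by 5.37, 5.12 and 4.65 on the log2 scale. The days did not overlap in any of these genes, which the naming rule required.

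Wild-type cardioids changed many of the same genes. In the wild-type step 4756 of the 13797 genes were called (34.5%), 2562 higher and 2194 lower. Both steps called 1674 genes higher and 1506 lower, which is 75.6% of the knockout calls and 66.9% of the wild-type calls, 13 genes were called in opposite directions and 1012 in the knockout step alone. A gene called in one step and not in the other is not thereby different, so the difference of the steps was tested directly. It was past the threshold in 84 genes (0.609%), 46 with a higher step in the knockout (0.333%) and 38 with a lower one (0.275%), and 1175 genes had an unadjusted p under 0.05 (8.52%). The count depended on the fit. With a block for each line and repeat, which pairs the libraries of a line across days, 441 genes passed (280 higher and 161 lower), 81 of them among the 84. Without cl46 and cl51, 32 passed (20 higher and 12 lower), 27 of them among the 84, and without cl4 R1 113 (52 higher and 61 lower). The libraries of the third block alone gave 70 (53 higher and 17 lower), 36 of them among the 84. The share that was higher, 54.8%, was 70.7% with no low-count filter, 67.4% in a fit of only the groups compared, 75.7% in the third block alone and 70.2% with the repeats of a line summed. Leaving out single libraries gave 43 (without cl46 of day 4.5), 48 (without cl51 of day 4.5) and up to 143 genes (without the wild-type cl43_WT_UT of day 4.5).

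**Figure D4:**
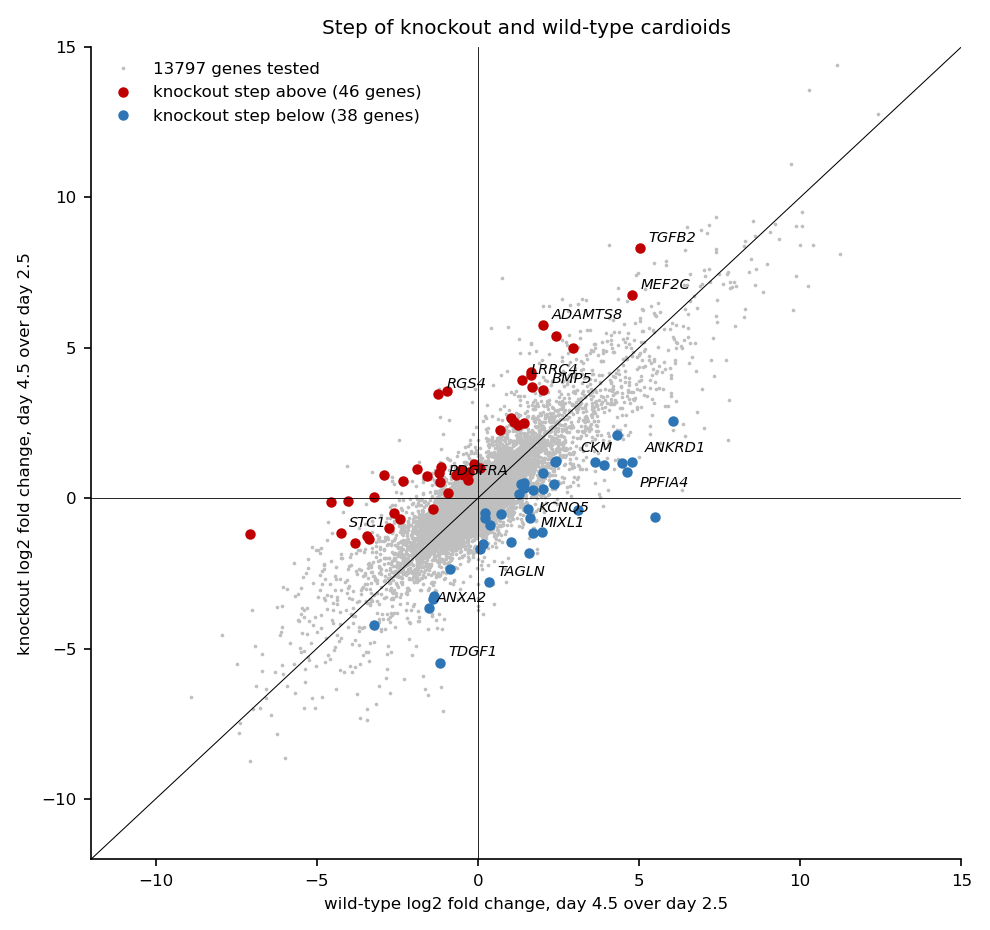
Log2 fold change from day 2.5 to day 4.5 in the wild type (horizontal) and in the knockout (vertical) for the 13797 genes tested, with the 84 genes whose steps differed in colour, 46 above the diagonal in red and 38 below it in blue. Most genes lie along the diagonal.

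In 23 of the 84 genes both genotypes rose by different amounts and in 11 both fell. In 11 the directions were opposite, in 13 only the wild type was called higher and in 11 only the wild type was called lower. The knockout alone was called higher in 9 and lower in 6. Sarcomere, calcium, mitosis and replication lists held 2 of these genes in all, ANKRD1 among them, of 38, 14, 22 and 20 measured. The share over all genes tested was 0.609%. Median log2 differences, knockout minus wild type, were −1.501 for thick filament, 0.142 for thin filament and −1.183 for Z-disc genes. Those of calcium, mitosis and replication genes were −0.475, −0.229 and −0.157. On simulated data this test recovered 23.9% of 2-fold differences, so few calls do not show that the steps were alike.

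ANKRD1, the ankyrin repeat protein of the Z-disc that responds to stretch, made a far smaller step in the knockout. Wild-type libraries went from 18.2 CPM (4.77–56.0) to 536 CPM (321–1050.1), and knockout libraries from 5.10 CPM (1.15–16.1) to 13.6 CPM (7.53–28.2), a log2 difference of −3.59 (SE 0.72, adjusted p = 0.00781). All 6 knockout libraries of day 4.5 were thus below the lowest wild-type library. The step within the knockout did not pass (adjusted p = 0.0903) but did with the block for each clone and repeat (0.00591). TAGLN, the actin-binding protein transgelin, stood at 67.8 CPM (57.8–109.6) and 97.0 CPM (59.3–102) in the wild type and fell from 64.3 CPM (32.5–78.9) to 6.83 CPM (4.98–13.7) in the knockout (log2 difference −3.12, SE 0.44, adjusted p = 5.54e-05). TAGLN overlaps PCSK7 on the other strand. ANXA2, a calcium-dependent membrane-binding protein, had the smallest adjusted p of all genes. It fell in both, from 234 CPM (199.6–262) to 75.7 CPM (50.1–112) in the wild type and from 224 CPM (178–249.7) to 17.6 CPM (12.8–23.2) in the knockout (log2 difference −2.13, SE 0.25, adjusted p = 3.40e-06). PPFIA4, a liprin scaffold protein, was at 1.41 CPM (0.510–1.54) and 28.8 CPM (11.1–51.5) in the wild type and 7.68 CPM (2.41–18.9) and 18.6 CPM (5.92–30.6) in the knockout (log2 difference −3.75, SE 0.65, adjusted p = 0.00142). KCNQ5, a potassium channel, was at 9.73 CPM (7.40–13.6) and 30.4 CPM (20.4–37.8), against 15.3 CPM (10.8–26.5) and 10.5 CPM (6.04–15.1), a log2 difference of −2.27 (SE 0.34, adjusted p = 1.58e-04). These 5 differences were called with every single library left out and without cl46 and cl51. In the third block alone ANKRD1, PPFIA4 and KCNQ5 lost their calls (adjusted p = 0.214, 0.128 and 0.289), and the log2 difference of KCNQ5 was −1.35 there. The wild type of that block was cl43_WT_UT and TNT2 alone.

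Genes whose step was higher in the knockout included secreted and surface proteins. ADAMTS8, a secreted metalloprotease, went from 2.35 CPM (0.574–3.66) to 117 CPM (95.5–199) in the knockout and from 3.88 CPM (3.06–4.94) to 16.3 CPM (7.51–21.5) in the wild type (log2 difference 3.72, SE 0.52, adjusted p = 5.54e-05). STC1, the glycoprotein stanniocalcin-1, fell in both but stayed at 53.6 CPM (21.3–78.2) in the knockout after 118 CPM (106–126), and went to 6.88 CPM (3.12–14.4) in the wild type after 141 CPM (110.4–197), a log2 difference of 3.08 (SE 0.43, adjusted p = 5.54e-05). LRRC4, a synaptic adhesion protein, went from 5.42 CPM (2.61–7.78) to 82.3 CPM (62.3–109.9) in the knockout and from 15.4 CPM (7.71–29.1) to 41.5 CPM (33.2–60.1) in the wild type (log2 difference 2.56, SE 0.47, adjusted p = 0.00308). LRRC4 lies opposite SND1. UNC5C, a netrin receptor, reached 39.0 CPM (29.9–62.5) in the knockout and 28.5 CPM (20.2–45.0) in the wild type (log2 difference 2.47, SE 0.50, adjusted p = 0.00838), and IGFBP3, a binding protein of insulin-like growth factors, 58.1 CPM (50.4–109) and 22.3 CPM (9.996–36.3), a log2 difference of 2.99 (SE 0.64, adjusted p = 0.0154). FLRT3, a surface protein that binds UNC5 receptors and lies within MACROD2 on the other strand, reached 40.5 CPM (11.7–66.0) and 5.89 CPM (2.19–17.1), a log2 difference of 2.87 (SE 0.56, adjusted p = 0.00581). UNC5C, IGFBP3 and FLRT3 lost their calls without cl46 and cl51 (adjusted p = 0.116, 0.2 and 0.127), while ADAMTS8, STC1 and LRRC4 kept theirs. IGFBP3 also lost its call in the third block alone (0.134) and UNC5C by limma-voom (0.0583).

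**Figure D5:**
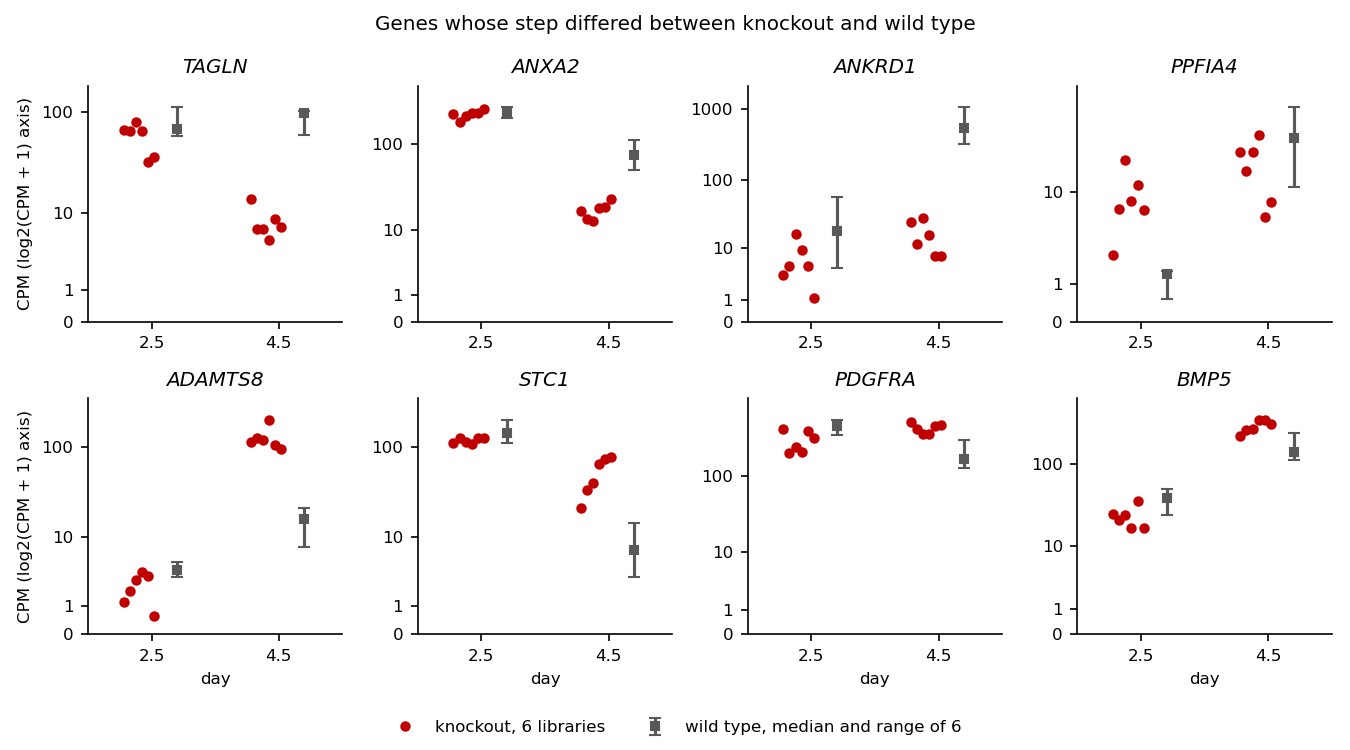
CPM at day 2.5 and day 4.5 of 8 genes whose step differed between the genotypes, with the 6 knockout libraries as points and the wild-type median and range as a bar. For ANKRD1 and TAGLN the day 4.5 knockout points lie below the wild-type range, and for ADAMTS8 and STC1 above it.

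Several mesodermal and early cardiac regulators had a different step. Of the heart factors, TBX5, MEF2C, HAND2 and ISL1 had higher steps in the knockout. MEF2C went from 23.8 CPM (6.48–25.5) to 543 CPM (325–662) in the wild type, against 9.24 CPM (6.31–15.6) to 1082 CPM (727–1232) in the knockout (log2 difference 1.96, SE 0.44, adjusted p = 0.0205). TBX5 went from 26.8 CPM (10.5–65.0) to 203 CPM (166–342), against 6.05 CPM (3.61–14.6) to 240.2 CPM (176–303), a log2 difference of 2.05 (SE 0.45, adjusted p = 0.0242). In both genes the knockout median was below that of the wild type at day 2.5 and above it at day 4.5. HAND2 went from 98.6 CPM (45.4–126) to 137 CPM (120.2–185) in the wild type (log2 difference 1.58, SE 0.32, adjusted p = 0.00812). All 4 lost the call without cl46 and cl51 (adjusted p = 0.266 for TBX5, 0.111 for MEF2C, 0.0808 for HAND2 and 0.283 for ISL1). In that fit, which has fewer knockout libraries, their log2 differences were 1.785, 1.97, 1.54 and 1.83 in the same order. PDGFRA fell in the wild type from 424 CPM (328–512) to 163 CPM (126–284) and rose in the knockout (log2 difference 1.72, SE 0.30, adjusted p = 0.00168), a difference that was called without these clones too. MIXL1 rose in the wild type, from 3.68 CPM (0.510–5.14) to 11.3 CPM (5.63–14.98), and fell in the knockout (log2 difference −2.87, SE 0.50, adjusted p = 0.00136). TDGF1, at the floor in the knockout at day 4.5, fell in the wild type from 15.8 CPM (6.61–20.1) to 6.596 CPM (2.64–7.497) (adjusted p of the difference 0.0159). The call of TDGF1 was lost without cl46 and cl51 (0.205), by limma-voom (0.139), with the repeats of a line summed (0.11) and in the third block alone (0.443), where that of MIXL1 was lost too (0.21).

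Of the signalling lists, BMP5, BAMBI, ID4 and BMPER had higher steps in the knockout. BAMBI (adjusted p = 0.04) lost its call in 15 of 24 cases with 1 library left out. BAMBI and ID4 lost theirs without cl46 and cl51 (0.227 and 0.158). Their log2 differences were then 1.05 and 1.315, beside 1.06 and 1.42 in the main fit. Both also lost the call with the repeats of a line summed (0.0868 and 0.0784), and ID4 in the third block alone as well (0.241). BMP5 reached 138 CPM (112–231) in the wild type after 39.0 CPM (24.4–49.97), a log2 difference of 1.59 (SE 0.28, adjusted p = 0.00318). BMPER, a secreted BMP regulator, was at 152 CPM (136–176) and 80.1 CPM (57.6–86.4) in the wild type and 130.1 CPM (110.1–220.2) and 146 CPM (125–189) in the knockout (log2 difference 1.11, SE 0.23, adjusted p = 0.00831). SFRP5, a secreted WNT antagonist, fell in the wild type from 50.5 CPM (32.1–78.3) to 18.7 CPM (11.3–20.5), beside 68.1 CPM (41.3–107) and 87.6 CPM (31.8–215) in the knockout (log2 difference 2.29, SE 0.49, adjusted p = 0.0161), and lost its call without cl46 of day 4.5 (adjusted p = 0.0533), without cl46 and cl51 (0.356) and in the third block alone (0.208). CDKN1A rose in the wild type from 7.03 CPM (4.41–9.18) to 13.9 CPM (7.82–18.2) and fell in the knockout (log2 difference −2.48, SE 0.49, adjusted p = 0.00625). That call was lost without cl46 and cl51 (0.0995) and in the third block alone (0.291). LAMA2, a laminin chain of muscle, went from 4.06 CPM (0.983–7.85) to 14.3 CPM (5.93–28.2) in the wild type and from 7.65 CPM (4.18–16.9) to 2.77 CPM (0.712–7.94) in the knockout (log2 difference −3.12, SE 0.65, adjusted p = 0.0124), and CKM, muscle creatine kinase, from 2.13 CPM (0.367–4.59) to 47.2 CPM (11.2–72.0) against 4.10 CPM (1.91–6.79) to 9.68 CPM (1.16–20.8), a log2 difference of −3.29 (SE 0.80, adjusted p = 0.0383). CKM lost its call in 13 of 24 cases with 1 library left out (adjusted p up to 0.0926). Without cl46 and cl51 neither LAMA2 (0.152) nor CKM (0.142) was called, nor was CKM in the third block alone (0.36). Of 37 named differences 23 were called with every single library left out, 13 without cl46 and cl51, 21 in the third block alone and 36 with the block for each line and repeat, and all 37 kept their sign without these clones.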

How the data were processed

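Libraries were 3′ mRNA libraries (QuantSeq FWD) of pooled cardioids, per the labels' protocols. The authors deposited 1 table of whole-number read counts for 58735 gene IDs, counted with featureCounts (Subread 1.6.2) on hg38/GRCh38, per the submitters' processing notes; the aligner, the strand setting and the treatment of multi-mapping reads are not given in the sources used here. All IDs occur in GENCODE 29, from which positions were taken, and 41937 matched a current symbol. A further 4 columns that match no listed sample were not used.

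Groups came from the titles. Counts were analysed with edgeR 4.0.16 in R 4.3.3 (filterByExpr with a minimum count of 10, TMM scaling, robust quasi-likelihood fit with 1 mean per group over the 41 libraries of the genotype arm, two-sided F-tests, Benjamini-Hochberg adjustment over all genes tested, threshold 0.05). CPM are counts divided by the library total, so they do not carry the TMM scaling. Floors of 3 counts and fold bounds cover counting error only, since no molecular identifiers are described and PCR copies cannot be removed. The alternatives were DESeq2 1.42.0, limma-voom (limma 3.58.1), other scaling and filters, blocks and left-out libraries.

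Named genes were the 12 highest and 12 lowest log2 fold changes among called genes whose days did not overlap, with a mean of at least 50 CPM in the higher group; the 10 highest and 10 lowest step differences with a mean of at least 20 CPM in a group; the same with 5 and 5 for the clone comparison; HAS2; and any member of the 37 lists (544 genes, 431 tested). The members and the lists were chosen with earlier results of these data known, so lists are described by counts and medians and were not tested as sets. Some genes that the rule covers are not reported here by name, though list counts and medians include them.

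Each clone or line was sampled at both days, which pairs its libraries. Deviations from the group means of the same clone and repeat correlated across 13797 genes at 0.064 to 0.149 in the knockout and 0.346 to 0.723 in the wild type. Tested on simulated data, the knockout step fit recovered 56.7%, 88.1% and 98.5% of genes changed 2-, 4- and 8-fold among 13161 genes, the step difference 23.9%, 70.1% and 89.4% among 13154, and the clone comparison 27.3%, 74.6% and 89.4% among 11874. The simulation changed only 66 or 67 genes of each size, all with a mean above the floor. It drew the libraries independently, without clones, so these rates may not hold for the real data.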

Additional observations from a re-analysis of the deposited data

Results flagged for a closer look

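Values that stood apart within a group of 6 knockout libraries were sought by the gap of the highest or lowest library to its neighbour, relative to the range of the group (Dixon's test). Of 179 groups of values tested, 12 passed (6.7%), where chance passes about 1 in 20, and 10 of them came from cl4 R1 of day 2.5. That library had the lowest total count, 831062. It was the highest of its group for SALL4 (841 CPM), ATP2A2 (235 CPM), GJA1 (750 CPM), PCNA (185 CPM), RARG (59 CPM) and FOXC2 (158 CPM), and the lowest for MKI67 (409 CPM), TOP2A (1606 CPM) and AURKA (101 CPM). The others were MYL7 in cl46 of day 2.5 (9.57 CPM, the lowest) and DUSP6 in cl14 of day 4.5 (340 CPM, the lowest). The part of depth in these values was not tested.

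The step from day 2.5 to day 4.5 differed between the genotypes by a direct test in 37 of the genes named here. Among genes with a higher step in the knockout, the log2 difference was 4.69 for RGS4, 3.72 for ADAMTS8, 3.29 for TGFB2, 3.08 for STC1, 2.99 for IGFBP3, 2.90 for DNAH2, 2.87 for FLRT3, 2.56 for LRRC4, 2.47 for UNC5C and 2.35 for DIO2. RGS4, which speeds the shut-off of G proteins, was at 2.62 CPM (0–3.61) and 28.5 CPM (2.54–44.0) in the knockout and 16.9 CPM (0.925–54.6) and 6.39 CPM (1.44–27.7) in the wild type, and lost its call with any of 6 libraries left out (adjusted p up to 0.0713). DIO2, the deiodinase that activates thyroid hormone, fell in both, from 61.0 CPM (28.1–85.9) to 21.7 CPM (5.50–35.5) and from 56.4 CPM (29.6–140.3) to 3.98 CPM (2.52–9.23). Listed genes on this side were TBX5 (2.05), MEF2C (1.96), HAND2 (1.58), ISL1 (2.19), PDGFRA (1.72), BMP5 (1.59), BAMBI (1.06), ID4 (1.42), BMPER (1.11) and SFRP5 (2.29). TGFB2 lost its call without cl43_WT_UT of day 2.5 (adjusted p = 0.0579). Without cl46 and cl51 TGFB2 (0.142), RGS4 (0.283), DNAH2 (0.0658) and DIO2 (0.327) were not called.

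Genes with a lower step in the knockout had log2 differences of −3.75 for PPFIA4, −3.59 for ANKRD1, −3.48 for PLEKHA2, −3.29 for CKM, −3.12 for TAGLN, −2.27 for KCNQ5, −2.23 for RASSF4, −2.13 for ANXA2, −1.96 for C6orf132 and −1.90 for FAM162A. Listed genes on this side were MIXL1 (−2.87), CDKN1A (−2.48), LAMA2 (−3.12), SFRP1 (−1.09), COL2A1 (−1.19) and GPI (−1.19). TDGF1 (−4.30) belongs here too, but it was at the floor in the knockout at day 4.5, so its fitted value is no bound. RASSF4 overlaps DEPP1 and FAM162A overlaps WDR5B on the other strand. PLEKHA2, CKM, RASSF4, FAM162A, SFRP1, COL2A1 and GPI each lost their calls with at least 1 library left out, as did RGS4, TGFB2, DIO2, TBX5, ISL1, BAMBI and SFRP5 on the other side. Calls lost without cl46 and cl51 included PLEKHA2 (adjusted p = 0.54), RASSF4 (0.237), FAM162A (0.396), C6orf132 (0.0663), COL2A1 (0.196) and GPI (0.279).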

How the results depend on the processing

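All choices below were planned except the fits without cl46 and cl51 or without cl4 R1, which were added after the data were seen. The count for the knockout step, 4205, stayed within 1.5 times under every alternative (3274 to 5443), and between 3841 and 4075 with 1 library left out; with the replicate block of clone and repeat it was 4809. The count of step differences, 84, moved to 196 with DESeq2, 130 with limma-voom, 318 with the library-number block as a term, 47 with the repeats of a line summed and 32 without cl46 and cl51, and ranged from 43 to 143 with 1 library left out; the cause was not tested. With the replicate block of line and repeat it was 441. For the clone comparison, 0 genes became 74 without the low-count filter, 35 with DESeq2, 8 with the replicate block, and 0 to 63 with 1 library left out. The count of listed genes called, 270, was 273 with RLE factors, 274 in the third block alone, 249 without cl46 and cl51 and 245 without cl4 R1.

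Some list medians changed sign. In the third block alone they were −0.157 for the secreted and stretch-response genes, 0.543 for WNT, 0.065 for NODAL and −0.019 for glycolysis. Without cl4 R1 at both days they were −0.039 for the secreted and stretch-response genes, 0.031 for WNT and 0.590 for skeletal muscle regulators, and without its day 2.5 library alone 0.376 for WNT and 0.716 for skeletal muscle regulators. Without cl46 and cl51 the median of skeletal muscle regulators was 1.143, against −1.002 over 2 measured genes. Of the named genes of the knockout step, 21 values lost their call and 8 gained one over the alternatives that kept every replicate or left out clones, against 1603 that did neither, and of the named differences 71 lost it against 373. Among the 130 named step genes with a value under the replicate block, it changed the calls of ANKRD1 and UGDH alone, and 7 others (SOX2, MYH7, TNNI3, CD44, SOX17, TTR and NR2F1) had none. Among the named differences the replicate block ended that of SFRP1 (adjusted p = 0.0752). At 831062 to 1969113 counts a library, genes under about 3 counts cannot be followed.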

Other observations

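The 6 knockout libraries of day 1.5 and the 3 of day 7.5, which entered the low-count filter and the shared estimate of spread but neither day compared, place the interval in the longer course, here as the median with the lowest and highest library. Those of day 7.5 were cl4 R2, cl4 R3 and cl14, so cl46 and cl51 are absent from the day 7.5 values. HAS2 stood at 143 CPM (93.9–301) at day 1.5 and 294 CPM (271–378) at day 7.5. EOMES was at 1222 CPM (1075–2536) at day 1.5 and 0 CPM (0–0.664) at day 7.5, and POU5F1 at 219 CPM (199–415) and 1.15 CPM (0.664–1.302). TNNT2 was at 0.651 CPM (0–1.26) and 5817 CPM (4959–5994), VCAN at 451 CPM (138–512) and 3430.3 CPM (3400.2–3600.1), and TOP2A at 1602 CPM (267–2202) and 136 CPM (101–189.9). ANKRD1 was at 419 CPM (149–627) at day 1.5 and 112 CPM (88.3–142) at day 7.5.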
